A study of Mus musculus with 8 samples.

Results

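The genes described here are 10 transcripts widely used as markers of an injured kidney tubule: Havcr1, Lcn2, Clu, Spp1, Krt20, Vcam1, Sox9, Cd44, Vnn1 and Gpnmb. They were taken by symbol from a table of 21879 genes, and each symbol matched 1 gene. Poly(A)-selected RNA was sequenced from TCMK-1, a transformed epithelial cell line of mouse kidney tubule. The 4 knockdown libraries came from cells with an shRNA against smgGDS (gene Rap1gds1, an exchange factor and chaperone for small GTPases), and the 4 control libraries from cells with a control shRNA. Both groups were treated with 20 µM cisplatin, a platinum compound that damages DNA and harms tubule cells. Saline-treated cells were not analysed here, so no value below measures a response to cisplatin. The labels name neither separate cultures or clones behind the 4 libraries of a group nor the duration of treatment, so p-values measure only the spread between these libraries, which may be technical.

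When a tubule is damaged, its surviving epithelial cells lose differentiated functions, flatten, divide and re-cover the basement membrane, and these transcripts are switched on along the way. Some encode proteins shed or secreted into urine (KIM-1 from Havcr1, NGAL from Lcn2, clusterin, osteopontin from Spp1), some are surface receptors for matrix and leukocytes (Cd44, Vcam1), and Sox9 encodes a transcription factor of the regenerating cell. Vcam1 expression that persists marks proximal tubule cells whose repair has failed.

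Total counts were 12746051 to 14280962 in the knockdown libraries and 11560977 to 16059158 in the control libraries. Rap1gds1 was at 38, 30, 33 and 35 counts in knockdown replicates 1 to 4, against 276, 258, 241 and 181 in control replicates 1 to 4, so every library matched its label. On the first principal component of log2 CPM (counts scaled to library size with TMM factors), with 29.2% of the variance, knockdown replicate 4 lay at 20.9, the other knockdown libraries at 8.86 to 9.58 and the controls at -16.5 to -8.86. The labelled epithelial identity was weakly marked by most of the markers checked. Of 8 tubule epithelial markers 4 passed the filter on low counts, their 8-gene sum was 13.9 to 16.8 CPM in knockdown and 14.6 to 17.1 CPM in control, and the nephron factor Pax8 was at 9.32 ± 1.19 and 8.96 ± 0.412 CPM (SD, n = 4 each). The epithelial cadherin Cdh1 never exceeded 5 counts and the proximal tubule factor Hnf4a had 0 counts in all 8 libraries. Aqp1, from the same list of proximal tubule markers as Hnf4a, was well expressed, at 127 ± 3.63 CPM in knockdown and 155 ± 6.07 CPM in control.

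The markers were expressed over a wide range, from abundant to undetected. By the authors' FPKM, a per-length scale on which genes can be compared, Spp1 was highest with a mean of 65.3 over the 8 libraries (60.7 to 70.6), followed by Cd44 at 21.7 (20.0 to 23.2) and Sox9 at 4.13 (3.28 to 4.71). These 3 did not overlap one another or the next gene in any library. Clu (1.95, 1.26 to 2.4) and Vcam1 (1.63, 1.37 to 2.06) overlapped, as did Lcn2 (0.973, 0.460 to 1.31), Vnn1 (0.923, 0.590 to 1.29) and Krt20 (0.569, 0.320 to 0.860) with the neighbour in the order. Gpnmb (0.0175, 0 to 0.0400) and Havcr1 (0 in every library) came last. Of the reads counted on the 10 markers, without regard to length, Spp1 and Cd44 together took 86.5% to 87.4% in knockdown libraries and 85.1% to 85.6% in control libraries.

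**Figure D1:**
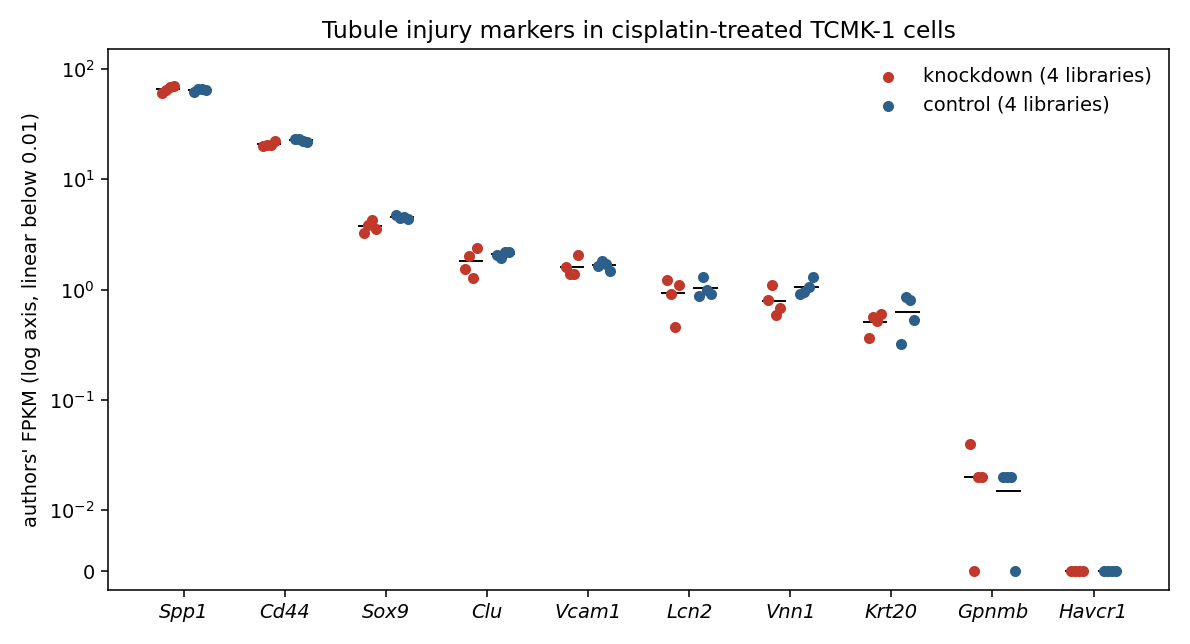
The authors' FPKM of the 10 injury markers (log axis, linear below 0.01), with 1 point for each of 4 knockdown (red, left) and 4 control (blue, right) libraries and a black line at each group mean. Levels run from 60.7 to 70.6 FPKM for Spp1 down to 0 for Havcr1, and the groups lie close together beside that range.

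Compared between the groups, no marker change passed the threshold with TMM factors and edgeR, and markers with few counts had wide intervals. The 95% interval ran from 56.0% to 157% of control for Lcn2 and from 52.1% to 134% for Krt20, against 90.4% to 102% for Cd44. For the low markers, the lack of a call does not show that they were unchanged. Of the 8 that passed the filter, edgeR called 0 at an adjusted p of 0.05, with 1 (Sox9) at an unadjusted p under 0.05, while 20.2% of the 11576 genes tested were called and 32.0% had an unadjusted p under 0.05. Limma voom also called 0 of 8, and DESeq2 called 0 of the 5 to which it gave an adjusted p. Estimates were below 0 for 7 of the 8 and above 0 for 1, beside 5903 below 0 among the 11576 genes tested. Among the 7, Vcam1 was near 0 and changed sign in 4 alternatives, and Lcn2 changed sign in 2. The median log2 fold change (knockdown minus control throughout) was -0.12, against a median of -0.0033 over all tested genes. The markers' median absolute log2 fold change of 0.12 was close to the 0.12 of all tested genes. For 0 of the 8 did the CPM of the groups separate without overlap, against 21.1% of all tested genes (9.61% with the knockdown lower). Fewer cells expressing a marker and less of its RNA per cell cannot be told apart in such bulk samples.

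**Figure D2:**
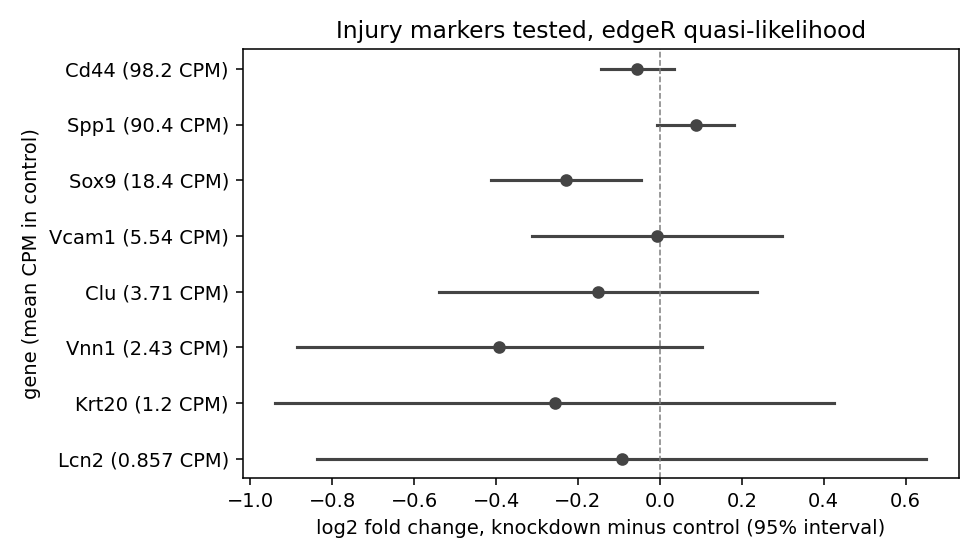
Log2 fold change (knockdown minus control) of the 8 tested markers by edgeR, with unadjusted 95% intervals, ordered by mean CPM in control. The intervals widen from Cd44 and Spp1 at the top to Krt20 and Lcn2 at the bottom, and that of Sox9 alone leaves out 0.

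Havcr1 encodes KIM-1, an apical receptor by which injured proximal tubule cells take up apoptotic debris. It had 0 counts in each of the 4 knockdown and 4 control libraries. A count of 0 allows a level of up to 0.214 to 0.240 CPM per knockdown library and 0.181 to 0.256 CPM per control library, taken as 3 counts and covering counting error only. The gene (ncbi_171283) spans 46739822 to 46779578 on chromosome 11 of GRCm38.p6.

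Gpnmb encodes a lysosomal and surface glycoprotein that is raised in lysosome stress. It had 2, 0, 1 and 1 counts in knockdown replicates 1 to 4, against 1, 1, 1 and 0 in control replicates 1 to 4. The sums of 4 counts in knockdown (exact Poisson 95% interval 1.09 to 10.2) and 3 in control (0.619 to 8.77) cannot be separated at this depth, and no fold change is given. Of 3 factors of the family that drives lysosomal genes, Tfe3 was at 80.3 and 79.5 CPM in knockdown and control, while Tfeb and Mitf were too low to be tested.

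Of the secreted markers, Spp1 was the most abundant and the most tightly measured. Osteopontin, its product, is a matrix cytokine that binds integrins and CD44. Spp1 was at 88.1, 93.5, 99.3 and 103 CPM in knockdown replicates 1 to 4, against 86.7, 90.3, 93.1 and 91.5 CPM in control replicates 1 to 4. Knockdown replicates 2 to 4 were above every control, replicate 2 by a small margin, and replicate 1 lay inside the control range. The difference of 0.088 on the log2 scale (SE 0.047, edgeR adjusted p = 0.196) puts the knockdown at 99.5% to 113% of control (95% interval). The estimate was 0.050 without knockdown replicate 4 (adjusted p = 0.531 by edgeR), 0.13 without knockdown replicate 1 (adjusted p = 0.0640 by edgeR) and 0.032 when counts were scaled by library total alone. Spp1 (chromosome 5, 104435111 to 104441053) shares 309 exon bases with an unconfirmed gene model on the same strand, Gm42793, that the deposited table does not list.

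Clu encodes clusterin, a secreted chaperone of damaged cells. It was at 2.85, 3.69, 2.32 and 4.47 CPM in knockdown replicates 1 to 4, against 3.63, 3.38, 3.91 and 3.93 CPM in control replicates 1 to 4. The knockdown libraries reached both below and above every control library. Its log2 fold change of -0.15 (SE 0.19, edgeR adjusted p = 0.641) had an interval of 68.8% to 118% of control.

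Lcn2 encodes lipocalin 2 (NGAL), which sequesters bacterial iron carriers and appears in urine soon after tubular damage. It had 15, 10, 5 and 12 counts in knockdown replicates 1 to 4, against 12, 18, 12 and 9 in control replicates 1 to 4. With so few reads the interval ran from 56.0% to 157% of control (log2 fold change -0.093, SE 0.37, edgeR adjusted p = 0.899), and the sign of the estimate turned without knockdown replicate 3 (0.12) or control replicate 2 (0.051). The data are compatible with any change of Lcn2 within that interval.

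Of the surface receptors, Cd44 was the higher by FPKM. CD44 is the main receptor for hyaluronan, carried by regenerating tubule cells. Cd44 was at 90.9, 91.9, 93.3 and 102 CPM in knockdown replicates 1 to 4, against 101, 98.5, 97.0 and 96.1 CPM in control replicates 1 to 4. Knockdown replicates 1 to 3 were below every control and knockdown replicate 4 above every control. Its log2 fold change was -0.056 (SE 0.044, edgeR adjusted p = 0.417), or 90.4% to 102% of control. Without knockdown replicate 4 it was -0.095 (adjusted p = 0.135 by edgeR). Cd44 spans 102811141 to 102901669 on chromosome 2, and its alternative exons are counted together in a gene-level table, so variant isoforms cannot be told apart.

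Vcam1 encodes an adhesion receptor for leukocyte integrins. It was at 5.49, 4.71, 4.80 and 7.19 CPM in knockdown replicates 1 to 4, against 5.47, 6.03, 5.72 and 4.96 CPM in control replicates 1 to 4. The means, 5.55 ± 1.15 and 5.54 ± 0.452 CPM (SD, n = 4 each), nearly coincided. A log2 fold change of -0.0065 (SE 0.15, edgeR adjusted p = 0.986) came with an interval of 80.6% to 123% of control. Vcam1 (chromosome 3, 116110020 to 116129688) shares 61 exon bases with the antisense gene Gm43109. Whether the counting used strand is not stated, so reads within those shared bases cannot be assigned to either gene.

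Vnn1 encodes vanin 1, a pantetheinase on the apical membrane of tubule cells. It had the largest estimate of the markers, with 1.64, 2.59, 1.44 and 1.68 CPM in knockdown replicates 1 to 4, against 2.09, 2.23, 2.51 and 2.91 CPM in control replicates 1 to 4. Knockdown replicates 1, 3 and 4 were below every control, and replicate 2 was above 3 of the 4 controls. The log2 fold change was -0.39 (SE 0.25, edgeR adjusted p = 0.283), with an interval of 54.1% to 107% of control. Raw counts, 18 to 33 in knockdown and 34 to 37 in control, did not overlap, but depth differed between libraries and the CPM did overlap. Without knockdown replicate 2 the estimate was -0.60 (adjusted p = 0.117 by edgeR).

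Krt20 encodes a type I keratin that is induced in injured tubule. It had 10, 14, 13 and 15 counts in knockdown replicates 1 to 4, against 10, 27, 22 and 12 in control replicates 1 to 4. Control replicates 2 and 3 were above the rest, and control replicate 1 was the lowest of all 8 libraries in CPM. The log2 fold change was -0.26 (SE 0.34, edgeR adjusted p = 0.656), with an interval of 52.1% to 134% of control. Among keratins of simple epithelium, Krt8 and Krt18 were also low and Krt7 was too low to be tested. Krt19 was higher, at 9.92 ± 1.05 and 10.1 ± 0.961 CPM in knockdown and control (SD, n = 4 each), and was not called. Krt8 was at 2.00 ± 0.375 and 2.74 ± 0.607 CPM, and Krt18 at 1.02 ± 0.388 and 1.62 ± 0.434 CPM, in knockdown and control (SD, n = 4 each), with edgeR adjusted p of 0.185 and 0.131.

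Sox9 was the marker nearest to a call. SOX9 is a transcription factor of the developing nephron that surviving tubule cells switch on again when they regenerate. Sox9 was at 13.8, 16.1, 18.1 and 15.1 CPM in knockdown replicates 1 to 4, against 19.1, 18.0, 18.7 and 18.0 CPM in control replicates 1 to 4. Knockdown replicates 1, 2 and 4 were below every control, and knockdown replicate 3 lay within the control range of 18.0 to 19.1 CPM. The knockdown mean was 15.8 ± 1.80 CPM and the control mean 18.4 ± 0.560 CPM (SD, n = 4 each). The log2 fold change was -0.23 (SE 0.09), or 85.3% of control with an unadjusted interval of 75.2% to 96.8%. The unadjusted p of 0.0149 became an edgeR adjusted p of 0.0667 over the 11576 genes. An exact two-sided permutation test over the 8 libraries gave p = 0.0857, where 0.0286 is the smallest it can give. Sox9 (ncbi_20682) spans 112782210 to 112787757 on chromosome 11 of GRCm38.p6, with no other annotated gene overlapping it.

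The call on Sox9 turned on the scaling and on 1 library. Scaled by library total alone, it passed with a log2 fold change of -0.29 (adjusted p = 0.0183 by edgeR), where 16.9% of tested genes were called lower against 9.15% with TMM. On that scale the knockdown libraries, at 13.6, 15.9, 17.7 and 14.7 CPM for replicates 1 to 4, all lay below the control libraries at 19.5, 18.6, 18.9 and 18.2 CPM. The authors' FPKM also separated the groups, with 3.28 to 4.28 in knockdown and 4.38 to 4.71 in control, as they did downward for 15.5% of tested genes. Limma on log2(FPKM + 0.5) gave an adjusted p of 0.0530. Leaving out knockdown replicate 3 gave -0.30 (adjusted p = 0.0236 by edgeR, where 8.19% of genes were called lower), and leaving out knockdown replicate 1 gave -0.17 (adjusted p = 0.246 by edgeR). Without knockdown replicate 4 it was -0.21 (adjusted p = 0.142 by edgeR). The estimate was below 0 in all 16 alternatives run.

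**Figure D3:**
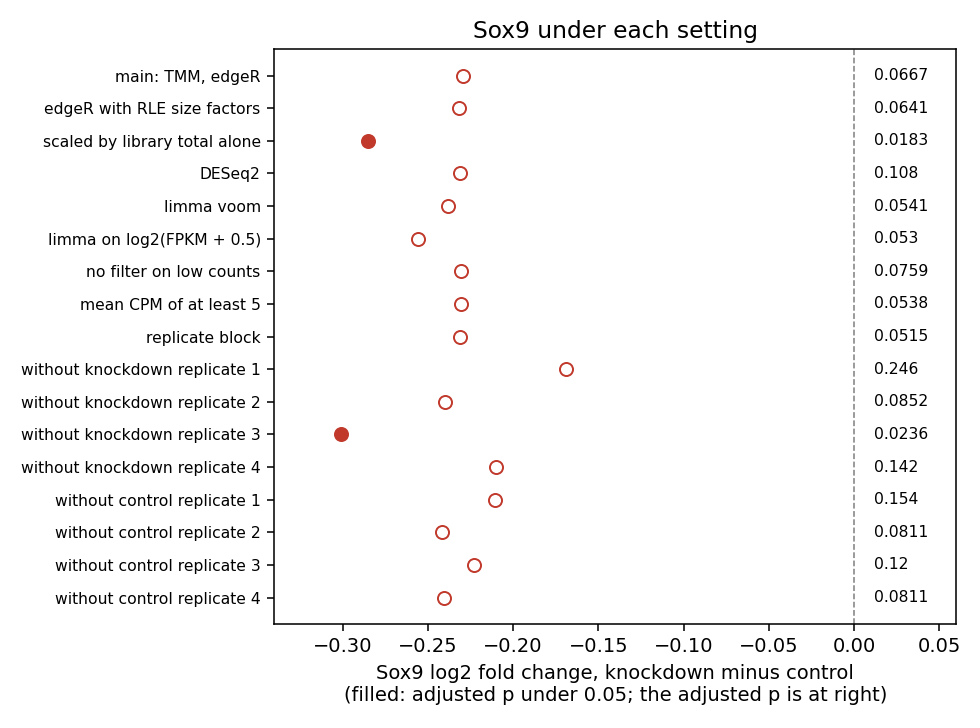
Log2 fold change of Sox9 (knockdown minus control) under TMM with edgeR and under each of 16 alternatives. Filled points have an adjusted p under 0.05, which is printed at the right, and the estimates run from -0.30 to -0.17.

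Among tested genes, those with a pattern over the 8 libraries most like that of Sox9 were Trim72, H1fx and Ibtk. The root mean square difference between their centred log2 CPM and that of Sox9 was 0.0391, 0.0492 and 0.0578, beside 0.154 for the distance of Sox9 from a flat line. H1fx, a linker histone gene, was called lower (21.5 ± 1.53 CPM in knockdown and 25.1 ± 0.637 CPM in control, SD, n = 4 each, edgeR adjusted p = 0.0331), though it lost its call with DESeq2 and in 6 of 8 fits without a single library. Trim72 (7.03 ± 0.639 and 8.15 ± 0.280 CPM) and Ibtk (16.2 ± 1.46 and 18.1 ± 0.965 CPM) were not called, with edgeR adjusted p of 0.231 and 0.217. As all were chosen by likeness to Sox9 over the same libraries, their lower knockdown means follow from the choice.

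For most markers the knockdown libraries differed more among themselves than the control libraries did. The SD of CPM was wider in knockdown for 7 of the 8 tested markers, Krt20 being the exception, and for 55.6% of all tested genes. Sox9 varied by 11.4% (coefficient of variation) in knockdown, against 3.04% in control, where counting error alone gives 7.01% and 6.06%. Clu varied by 28.3% in knockdown, against 7.08% in control, where counting error alone gives 15.2% and 13.6%. The spread exceeded counting error for 7 of the 8 tested markers in knockdown and for 2 in control. For the other tested markers the control spread lay below counting error. An SD from 4 libraries is itself imprecise, and the cause of the contrast was not tested. Of 9 markers with any count, knockdown replicate 4 held the highest CPM for 4, Spp1, Cd44, Clu and Vcam1, and the lowest for 0. Knockdown replicate 3 held the lowest for Lcn2, Clu and Vnn1.

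**Figure D4:**
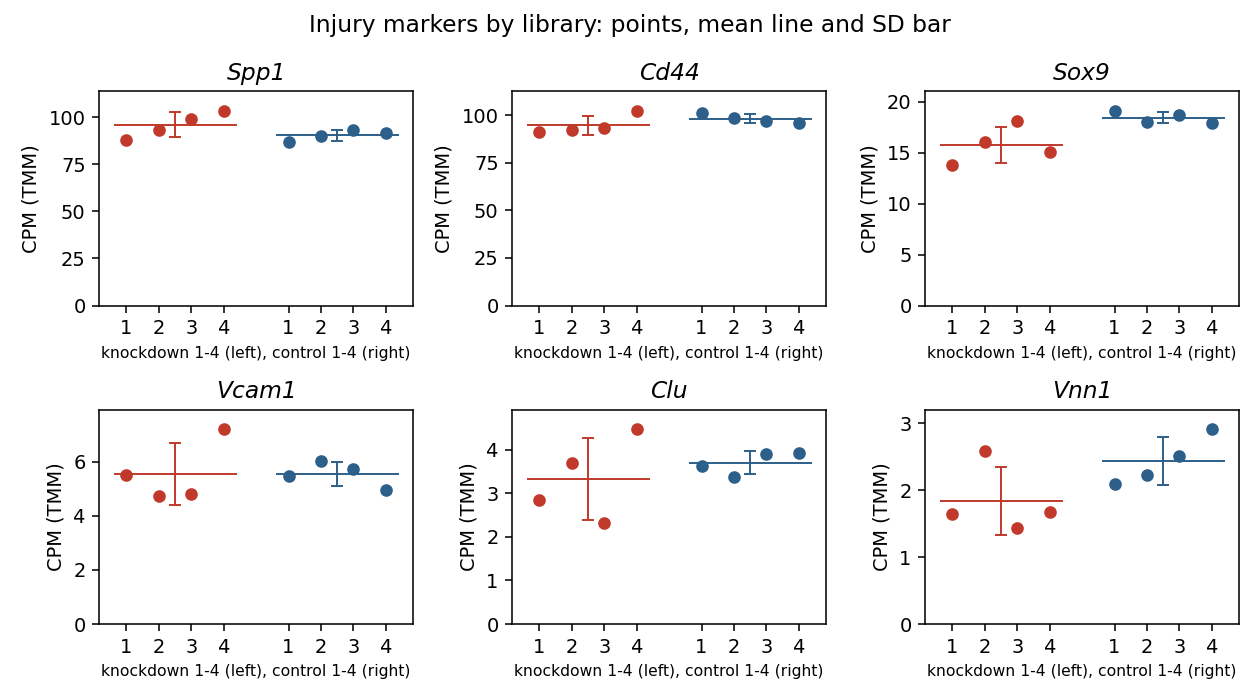
CPM after TMM scaling of 6 markers in knockdown replicates 1 to 4 (red, left) and control replicates 1 to 4 (blue, right), with a line at the mean and a bar of 1 SD. Knockdown replicate 4 is the highest library for Spp1, Cd44, Vcam1 and Clu, and Sox9 is lower in knockdown replicates 1, 2 and 4 than in any control.

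Other genes of tubule injury and repair moved in both directions. Of a list of 40, 34 were tested, 10 rose and 5 fell, with a median log2 fold change of 0.0085. The share called was 44.1%, against 20.2% of all tested genes. In a fit of genes with a mean of at least 5 CPM it was 48.3%, against 26.7% of all genes in that fit. The list was chosen with earlier results of these data known, so these shares are a description and no test of the list. Without knockdown replicate 4, 12 rose and 5 fell. Scaling by library total gave 6 rises and 6 falls. Anxa1, a calcium-dependent phospholipid-binding protein that limits inflammation, rose to 844 ± 28.0 CPM in knockdown, against 721 ± 18.8 CPM in control (SD, n = 4 each), with a log2 fold change of 0.23 (SE 0.03) and an edgeR adjusted p of 8.57e-08. Ctgf, a matricellular growth factor regulator, rose by 0.32 (SE 0.04), with libraries at 116 to 122 CPM in knockdown, against 90.0 to 98.9 CPM in control. Timp2, a metalloproteinase inhibitor measured in human urine as a sign of tubular stress, rose by 0.25 (SE 0.03), and the stress-response factor Nupr1 rose by 0.25 (SE 0.04). The largest edgeR adjusted p of these 4 was 1.41e-06, for Nupr1, and their groups did not overlap.

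The 5 that fell were Cd24a, Sox4, Sprr1a, Timp1 and Hmox1, named after their values were seen. Sprr1a, a cornified-envelope protein of stressed epithelium, fell to 1.86 ± 0.523 CPM in knockdown, against 3.96 ± 0.802 CPM in control (SD, n = 4 each), with a log2 fold change of -1.08 (SE 0.22) and an edgeR adjusted p of 0.000299. Sox4, a SOX factor that like Sox9 is expressed in the developing kidney, fell to 28.6 ± 1.12 CPM, against 33.5 ± 2.31 CPM in control (log2 fold change -0.23, SE 0.07, edgeR adjusted p = 0.0123), and lost its call without control replicate 2 (adjusted p = 0.0741 by edgeR). Cd24a, a surface glycoprotein of immature and injured epithelium, fell by 0.18 on the log2 scale (SE 0.04). The metalloproteinase inhibitor Timp1 fell by 0.14 (SE 0.03) and the haem-degrading enzyme Hmox1 fell by 0.33 (SE 0.05) on the log2 scale.

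Binding partners of the markers were also divided. Of 31 receptors, ligands and partners, 24 were tested, 4 rose and 6 fell, with a median of -0.016. The share called was 41.7%, against 20.2% of all tested genes. In the fit of genes with a mean of at least 5 CPM it was 50%, against 26.7% of all genes in that fit. This list too was chosen with earlier results known, so the shares are a description only. Without knockdown replicate 4, 2 rose and 4 fell, and without control replicate 2 the counts were again 2 and 4, while total-count scaling gave 2 rises and 8 falls. Msn, encoding moesin, which ties the CD44 tail to actin, rose to 790 ± 41.5 CPM in knockdown, against 673 ± 32.4 CPM in control (SD, n = 4 each), with a log2 fold change of 0.23 (SE 0.03) and an edgeR adjusted p of 1.14e-05. Vldlr, a lipoprotein receptor that can bind clusterin, rose by 0.45 (SE 0.09). Cd74, the invariant chain and a partner of CD44 at the cell surface, fell to 9.27 ± 1.52 CPM in knockdown, against 13.4 ± 0.564 CPM in control (a log2 fold change of -0.52, SE 0.11, edgeR adjusted p = 0.000456). Hmmr, a hyaluronan receptor that also works on the mitotic spindle, fell by 0.41 on the log2 scale (SE 0.08). Itga4, the VCAM1-binding integrin subunit, and Itga8, an osteopontin-binding subunit, had 0 counts in every library. Other integrin subunits of the list ranged from Itga9, with at most 1 count a library, to Itgb1, at 919 ± 18.7 and 893 ± 31.9 CPM in knockdown and control. Itgav was at 29.3 ± 4.21 and 30.3 ± 2.44 CPM and, like Itgb1, was not called. Itgb5 rose by 0.25 (SE 0.08, edgeR adjusted p = 0.0309), though its groups overlapped.

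Of 22 transcription regulators with links to the markers, 17 were tested, 3 rose and 1 fell, with a median of 0.044. The share called was 23.5%, against 20.2% of all tested genes. In the fit of genes with a mean of at least 5 CPM it was also 23.5%, against 26.7% of all genes in that fit. Rela, the NF-kB subunit that acts on Lcn2 and Vcam1, fell to 230 ± 6.90 CPM in knockdown, against 250 ± 4.92 CPM in control (SD, n = 4 each), with a log2 fold change of -0.12 (SE 0.03) and an edgeR adjusted p of 0.00697. Cebpb, an inflammation-responsive factor, rose by 0.16 (SE 0.05), Yap1, the Hippo pathway coactivator, rose by 0.26 (SE 0.08), and Cebpd rose by 0.19 (SE 0.07) with an edgeR adjusted p of 0.0479. These 3 rises lost their calls under total-count scaling and on FPKM, where 0 of the list rose and 4 and 2 fell. Cebpd has counts that are not whole and lost its call in 11 of 16 alternatives, and Yap1 also lost its call without knockdown replicate 1.

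**Figure D5:**
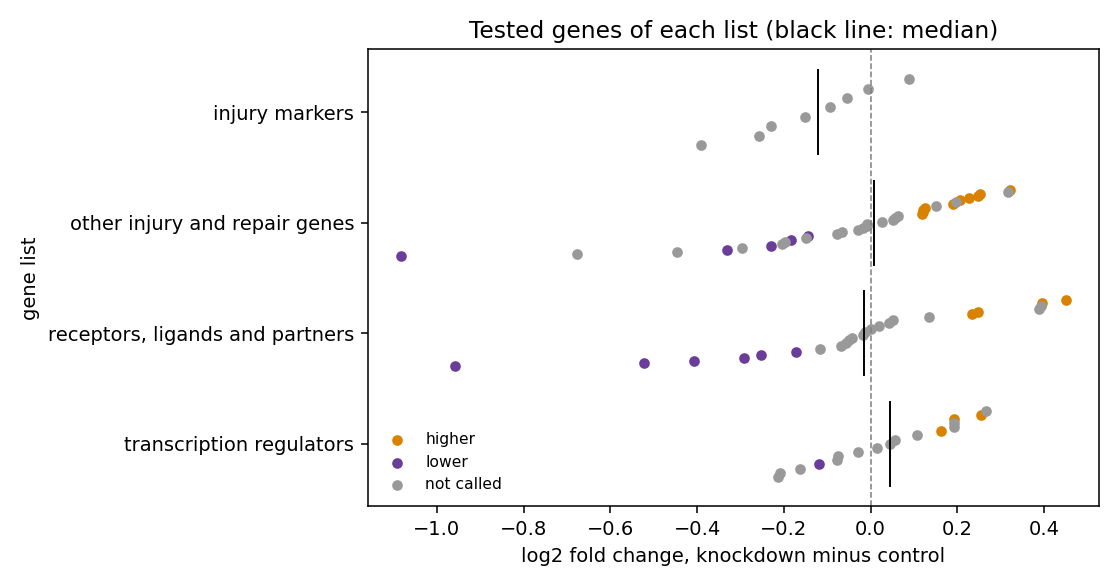
Log2 fold change (knockdown minus control) of the tested genes of 4 lists, coloured by edgeR call, with a black line at each list's median. Calls in both directions are present in the 3 lists of related genes, and 0 of the 8 injury markers were called.

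Markers of other cell types gave these values beside the results above, against 11.1% of all tested genes called higher and 9.15% called lower. Of 6 fibroblast and pericyte markers 4 were tested and 4 rose, Acta2, Col1a1, Dcn and Pdgfrb. The 6-gene sum was 975 to 1093 CPM in knockdown, against 679 to 757 CPM in control. Most of it was Acta2, at 672 ± 31.2 and 429 ± 25.6 CPM in knockdown and control, and Col1a1, at 328 ± 21.6 and 281 ± 10.1 CPM (SD, n = 4 each). Dcn lost its call without knockdown replicate 4 or control replicate 2, and Pdgfrb without knockdown replicate 3 or control replicate 3 and on FPKM. Pdgfra and Lum never exceeded 9 counts. Their summed counts were lower in knockdown, at 5 and 0, against 19 and 7 in control. Of 5 endothelial markers Flt1 alone was tested, and it rose (log2 fold change 0.60, SE 0.11), with a 5-gene sum of 11.9 to 13.8 CPM in knockdown and 7.46 to 9.57 CPM in control. Of 7 leukocyte markers 3 were tested and Cd14 fell (-0.36, SE 0.06), with a 7-gene sum of 112 to 123 CPM in knockdown and 130 to 139 CPM in control, while Adgre1 and Cd3e had 0 counts in every library and Ptprc at most 1. Most of that sum was Cd14, at means of 59.5 and 76.5 CPM in knockdown and control, and Cd68, at 56.0 and 59.0 CPM and not called. Of 6 proximal tubule markers 3 were tested and the water channel Aqp1 fell (-0.29, SE 0.04), with a 6-gene sum of 126 to 132 CPM in knockdown and 150 to 164 CPM in control. Most of that sum was Aqp1, at means of 127 and 155 CPM in knockdown and control. The part of these other cell type markers in the results on injury markers was not tested.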

How the data were processed

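Per gene, the deposited table gives expected counts, some not whole (6.52% of values, tolerance 1e-09), and the authors' FPKM, per the file headers and values. The submitters' processing notes list RSEM, StringTie 1.3.1, HISAT2 2.4, Bowtie2 2.2.8, fastp 0.18.0, edgeR and DESeq2 without saying what each did, and build GRCm38.p6. Annotation release and strandedness are not stated. Counts of all 10 markers were whole. Coordinates are RefSeq's and overlaps GENCODE M21's, both of that build.

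Counts were rounded and tested with edgeR 4.0.16 (R 4.3.3): TMM factors, the default filter (minimum count 10), a robust quasi-likelihood fit, two-sided F-tests on group without covariates, and Benjamini-Hochberg adjustment over 11576 genes, threshold 0.05. Standard errors and 95% intervals come from the fold change and F statistic. The log2 CPM used a prior count of 2. Floors of 3 counts cover counting error only. Replicates differed beyond sampling noise (chi-square per degree of freedom 1.94 to 3.97). The procedure was tested on simulated data.

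Alternatives were other scalings, DESeq2 1.42.0, limma 3.58.1, other filters, a replicate term, a threshold of 0.01 and each library left out. Members, lists and tests were chosen with earlier results of these data known. Named are all markers, Rap1gds1, up to 4 called genes per list with the smallest adjusted p and the 3 genes most like the marker with the smallest p; other names were chosen after their values were seen.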

Additional observations from a re-analysis of the deposited data

Results flagged for a closer look

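Of 88 groups of 4 libraries examined for a library far from the other 3, 3 held such a library, where chance gives about 1 in 20. Gpnmb was at 0 CPM in control replicate 4, against 0.0603 to 0.0698 CPM in the other controls, a difference of 1 count. Flt1 was at 13.3 CPM in knockdown replicate 4, against 11.5 to 11.8 CPM in the other knockdown libraries. Dcn was at 6.79 CPM in knockdown replicate 4, against 5.77 to 5.84 CPM in the other knockdown libraries.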

How the results depend on the processing

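The count of injury markers called was 0 with TMM factors and edgeR and 0 in each alternative except 1 under total-count scaling; leaving out each library in turn gave 0 to 1. The 1 marker was Sox9 each time. All genes called numbered 2344 (1285 higher and 1059 lower), 1405 at a threshold of 0.01 and 1831 to 2184 with a library left out. The split was 766 higher and 1951 lower under total-count scaling and 592 higher and 1481 lower on FPKM. Receptors, ligands and partners called numbered 10, then 5 at the threshold of 0.01 and 6 to 9 with a library left out. Regulators called numbered 4 (3 higher and 1 lower), then 2 at that threshold, 2 on FPKM (0 higher and 2 lower) and 3 to 4 with a library left out. Of the 2717 genes called under total-count scaling, 1825 were also called with TMM factors and edgeR, as were 1546 of the 2073 called on FPKM. For the 3 lists of related genes, which genes make up each count was not compared in full. The count for other injury and repair genes stayed between 12 and 17 in all alternatives. Signs turned for Lcn2 (0.12 and 0.051, within -0.27 to 0.12 over libraries left out) and Vcam1 (0.063, 0.055, 0.038 and 0.0067, within -0.15 to 0.063), and the cause was not tested; the other 6 tested markers kept their sign in every alternative run. With a mean CPM of at least 5 required, 4 markers remained tested.

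Libraries with the same replicate number deviated together weakly at most, with correlations of -0.0365 to 0.0828. Of the 4 knockdown libraries 3 were nearest the control of their own number, so these values do not settle whether numbers pair them. With the replicate block 2660 genes were called, against 2344 without it. The block called 0 injury markers, and Sox9 had an adjusted p of 0.0515 by edgeR. Depth limits Lcn2, Krt20 and Vnn1, with 5 to 37 counts a library.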

Other observations

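Hyaluronan is a ligand of CD44, and the values of 5 enzymes that make or cut it, picked from the list of partners after their values were seen, are given as a description with no test of the group. Of all tested genes 9.15% were called lower, and 16.9% under total-count scaling. Among the synthases, Has1 fell to 14.9 ± 0.916 CPM in knockdown, against 18.3 ± 2.19 CPM in control (SD, n = 4 each), with a log2 fold change of -0.29 (SE 0.09) and an edgeR adjusted p of 0.0222, and Has2 fell to 16.6 ± 1.19 CPM, against 19.7 ± 1.17 CPM in control (-0.25, SE 0.09, edgeR adjusted p = 0.0318). Has3, at 5.63 ± 0.689 and 6.08 ± 0.635 CPM in knockdown and control, was not called (edgeR adjusted p = 0.629). The hyaluronidase Hyal1 fell to 2.31 ± 0.965 CPM in knockdown, against 4.44 ± 1.28 CPM in control (-0.96, SE 0.24, edgeR adjusted p = 0.00378), with 1 knockdown library above the lowest control. Hyal2 fell to 43.0 ± 1.53 CPM in knockdown, against 48.4 ± 0.765 CPM in control (-0.17, SE 0.06, edgeR adjusted p = 0.0217), and its groups did not overlap. Hyal1 kept its call in every alternative in which it was tested. Has1 lost its call without knockdown replicate 4 (adjusted p = 0.0778 by edgeR) or control replicate 2 or 3. Has2 lost its call with DESeq2 and without knockdown replicate 1 or 4 or control replicate 1, 2 or 3, and Hyal2 without knockdown replicate 1 or control replicate 1.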
